A study of Mus musculus with 12 samples.

Results

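Exon usage was compared between cardiac bodies, the last stage of a mouse embryonic stem (ES) cell differentiation, and its earlier stages. An exon array carries several probe sets along each gene, most of them in separate exons, so that 1 exon can be set against the rest of its gene. The relative signal of a probe set was its log2 signal minus the median signal over the gene's probe sets in that sample. A relative signal of 0 therefore means that the probe set stood at its gene's median. The tested samples were 2 cardiac bodies (day 14). They were set against 4 samples pooled, 2 of undifferentiated ES cells (day 0) and 2 of embryonic bodies (day 7). All 6 came from mouse ES cells grown in a DMEM medium with 10% serum, and the labels name no genetic change, no agent and no strain. They do not say whether replicates were separate cultures, so the spread between replicates may be technical. The p-values and standard errors (SE) do not rest on that spread alone. Within the 4 pooled samples their spread also holds the difference between days 0 and 7.

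Of 229581 probe sets in the exon-level table, 96580 belonged to genes kept for the comparison. These were 6258 genes with 4 or more probe sets and a gene median at or above 7.26, the median of all values, at each of the 3 stages. The gene just inside that limit was Snx11, with 7.2566 at its lowest stage, and the one just outside was Pcnt, with 7.2563. A further 2962 probe sets lay below the 25th percentile of all values, 5.37, at every stage and were set aside, which left 93618 to be tested. Genes with a median under that limit before day 14 are outside this comparison by construction. The limit does not show that a gene kept was expressed, since no detection calls were used. Myl4, for example, was kept with a median of 7.29 and 7.34 in ES cells, and Nkx2-5 with 7.24 and 7.48. Of 42 genes of the sarcomere and Z disc list, 13 were kept.

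Most mammalian genes with several exons give more than 1 mRNA, through alternative splicing or through alternative first and last exons. Heart muscle is known for many such switches, in proteins of the contractile apparatus, of the Z disc that anchors it, and of calcium handling. RNA-binding proteins of the Rbfox, Mbnl, Celf, Ptbp and Rbm families are known regulators of muscle exons. Genome positions of the array's probe sets were not analysed here, so each is given by its array number and no exon is named.

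The label of the cardiac bodies was checked at the gene level. All 9 measured cardiomyocyte markers were higher at day 14 (limma adjusted p under 0.05, over 23332 transcript clusters, of which 156, or 0.669%, were called higher and 2, or 0.00857%, lower). Their median was 11.16 and 10.74 in the cardiac bodies, against 5.35 and 5.51 in ES cells and 6.01 and 5.94 in embryonic bodies. Markers of other cells were measured too. Pluripotency markers had a median of 10.07 and 10.66 in cardiac bodies, against 10.64 and 10.93 in ES cells and 8.68 and 8.52 in embryonic bodies, with none of 11 clusters called. Of 5 measured markers of yolk sac and hepatic endoderm, 2 were called higher, Alb and Afp. Epithelial, endothelial, fibroblast and neural markers gave no call, and 4 of 7 epithelial ones lay below all other samples in the cardiac bodies, as did 6.57% of all clusters. The test pools days 0 and 7, so a marker high at day 7 alone has a wide spread and is hard to call. Endothelial markers had a median of 5.87 and 5.90 in cardiac bodies, against 5.68 and 5.48 in ES cells and 7.64 and 8.59 in embryonic bodies. For fibroblast markers these were 6.27 and 6.25, against 5.72 and 5.63 in ES cells and 8.33 and 6.48 in embryonic bodies. The part of these cell types in the exon differences was not tested. In such bulk samples fewer cells of a type and less RNA per cell cannot be told apart.

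No probe set passed the test of the relative signal: 0 of 93618 (0%) were called in either direction (limma, Benjamini-Hochberg adjusted p under 0.05, absolute difference at least 1). At an unadjusted p under 0.05 there were 3066, or 3.275%. limma's diffSplice, an alternative that takes the spread from all probe sets of a gene, called 19 higher and 11 lower. The lowest adjusted p was 0.205, for a probe set of Tpm1. What follows is therefore a description of the largest differences. A probe set is called separated here when both cardiac body samples lay beyond all 4 others and the difference of the means was 1 or more, a ratio of 2 on the linear scale. In this sense 130 probe sets (0.139%) were separated upwards in cardiac bodies and 141 (0.151%) downwards. They lay in 204 genes, of which 162 held 1 of them, 26 held 2 and 16 held 3 or more.

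Fewer probe sets were separated for cardiac bodies than for either other stage, over the same 93618. ES cells set against days 7 and 14 gave 320 higher (0.342%) and 373 lower (0.398%), and embryonic bodies set against days 0 and 14 gave 330 higher (0.352%) and 371 lower (0.396%). These counts share samples, and no test of their difference was made. The median absolute difference between the 2 replicates in relative signal was 0.264 in cardiac bodies, 0.282 in ES cells and 0.172 in embryonic bodies. Replicate 1 of cardiac bodies deviated in the same direction as replicate 1 of ES cells across probe sets (r = 0.57 over the tested probe sets, which are not independent). With embryonic bodies the same value was -0.10. The counts also rest on single samples. Without replicate 1 of cardiac bodies, 1045 lay higher and 318 lower, and without replicate 2, 507 lay higher and 1206 lower. With 1 sample left, fewer values have to clear the others, in both directions. The direction with more probe sets also changed with the replicate left out, so the 2 cardiac body samples differed in this respect. The cause was not tested. Without replicate 2 of ES cells 257 lay higher, and without replicate 1 of embryonic bodies 217 lay lower.

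**Figure D1:**
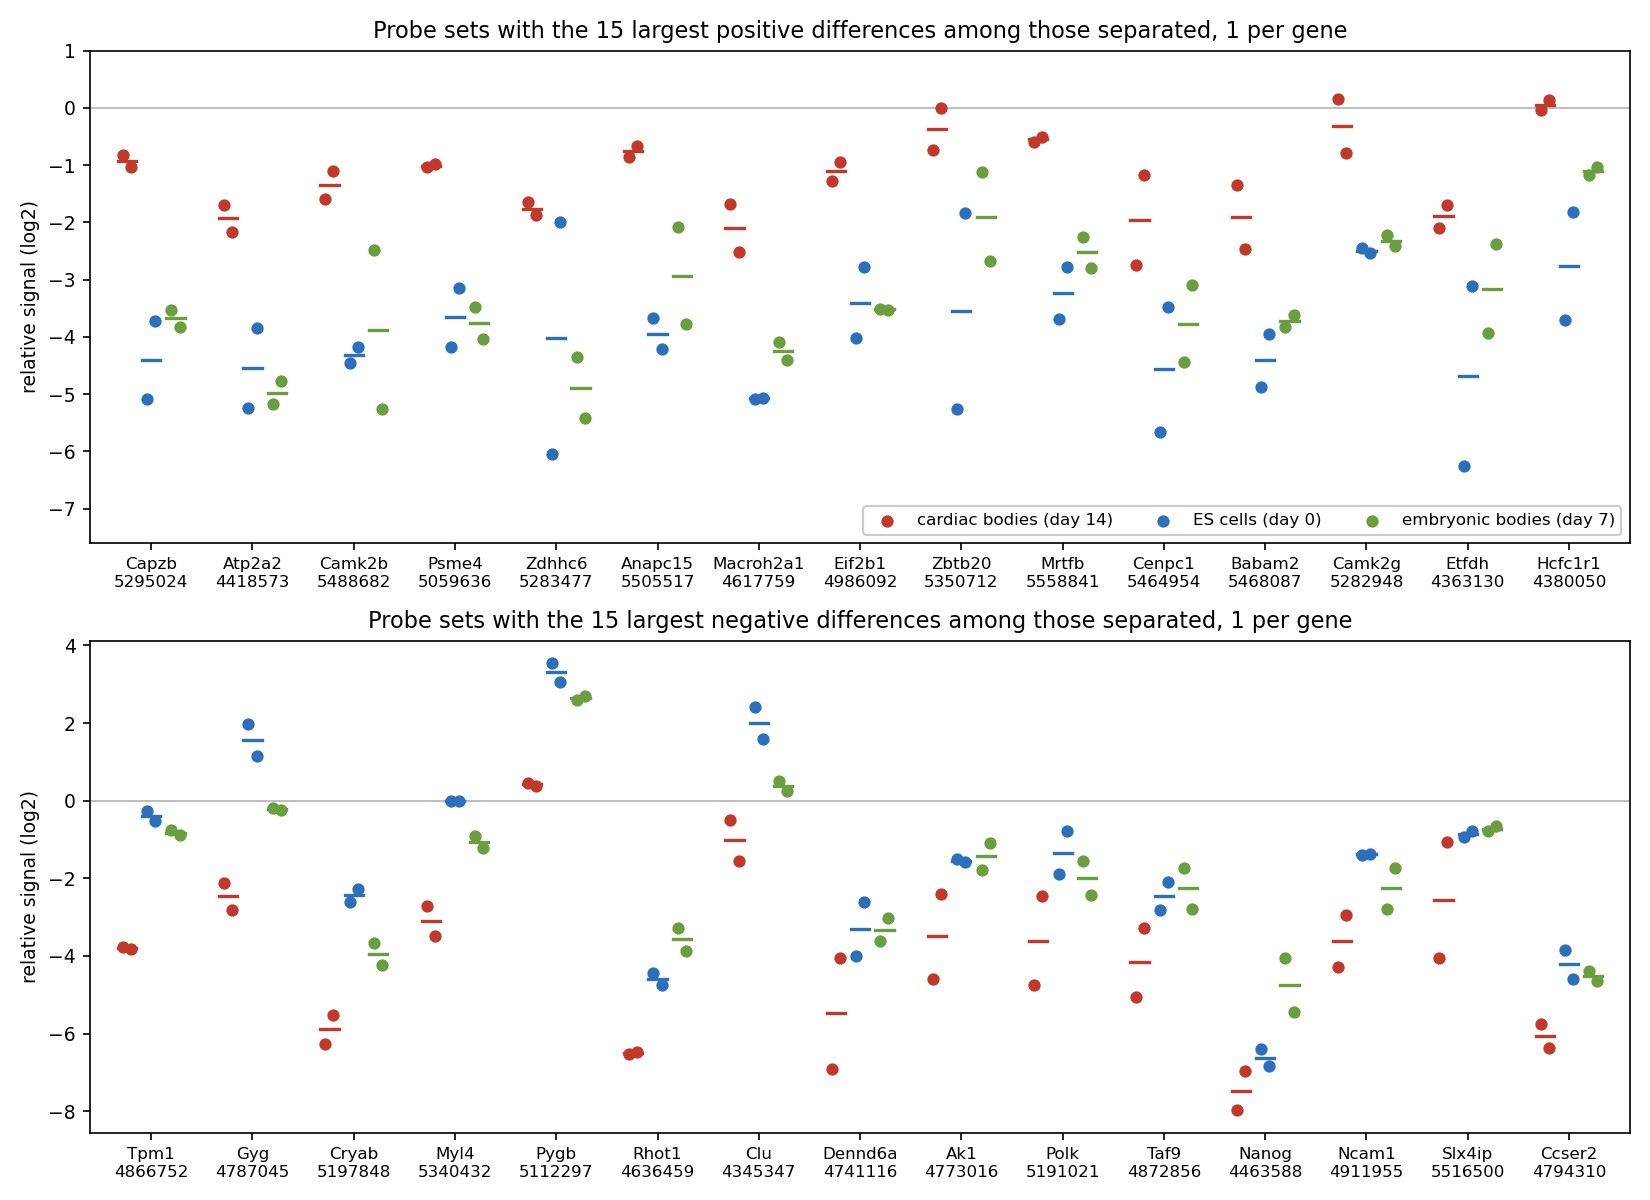
Relative signal (log2, y axis) of the 15 probe sets with the largest positive differences (upper panel) and the 15 with the largest negative ones (lower panel) among the separated, 1 per gene, with gene and probe set number on the x axis. Each point is a sample and each bar a stage mean (n = 2). The gap to the nearest other sample is wide for Capzb (2.50) and Tpm1 (2.89) and narrow for Zdhhc6 (0.12) and Polk (0.03).

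The contractile apparatus is taken first. Tpm1 encodes alpha-tropomyosin, which lies along the actin filament and is known for mutually exclusive exons that differ between muscle and other cells. Its probe set 4866752 had a relative signal of -3.77 and -3.83 in cardiac bodies, against -0.26 and -0.52 in ES cells and -0.76 and -0.89 in embryonic bodies. The cardiac bodies were lowest by a wide margin, with a difference of -3.19 ± 0.20 (SE of the limma fit, 2 samples against 4, as in all differences below). A second probe set, 4425421, behaved alike, at -3.11 and -2.61 against 0.26 and 0.32 in ES cells and -0.11 and -0.26 in embryonic bodies, a difference of -2.91 ± 0.23. The gene median was 12.55 and 12.50 in cardiac bodies, against 8.2 and 8.68 in ES cells and 11.82 and 11.91 in embryonic bodies, a difference of 2.37 from the pooled samples that came mostly from day 0. The signal of 4866752 was 8.78 and 8.67 in cardiac bodies, against 7.94 and 8.15 in ES cells and 11.06 and 11.03 in embryonic bodies, so that it lay above day 0 and below day 7. Probe set 4415283 was also separated, at -1.15 ± 0.55. The largest positive difference of the gene, 1.78 ± 1.42, was not separated.

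Pdlim5 held 6 separated probe sets of 17, which no gene exceeded and Myl4 equalled. It encodes a Z disc adaptor with a PDZ domain and, in its long forms, LIM domains, and it is known for muscle-specific short forms. Probe set 4390279 stood at -1.12 and 0.00 in cardiac bodies, against -2.82 and -1.94 in ES cells and -2.20 and -2.44 in embryonic bodies (difference 1.79 ± 0.37). Probe set 5604408 was also higher, by 1.06 ± 0.19. The other 4 lay lower, with differences of -1.37 ± 0.19 for 5370444, -1.30 ± 0.13 for 4446256, -1.26 ± 0.12 for 4338441 and -1.26 ± 0.11 for 4533867. For 4446256 the values were 0.00 and 0.10 in cardiac bodies, against 1.21 and 1.41 in ES cells and 1.37 and 1.42 in embryonic bodies. For 4446256 replicates of a stage differed little, and days 0 and 7 were alike. The gene median was higher by 0.88 in cardiac bodies, and the signal of 4446256 averaged 10.18 there, against 10.60.

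Among related genes, Pdlim7, another Z disc PDZ-LIM protein, had 5314136 at -1.24 and -0.92 in cardiac bodies, against 0.36 and 0.72 in ES cells and 0.19 and -0.24 in embryonic bodies (difference -1.34 ± 0.27, gene median higher by 1.35). Its probe set 5229646 had the larger mean difference, -1.85 ± 0.73, but its samples of day 14 were far apart (-6.14 and -3.32) and overlapped with ES cells (-3.39 and -2.43). Tpm3, a further tropomyosin, had 5572582 at -0.08 and -0.83, against -1.60 and -1.96 in ES cells and -1.87 and -1.18 in embryonic bodies, a difference of 1.20 ± 0.30 in a gene whose median differed by -0.26. In all, 11 of 257 probe sets of the list were separated (4.28%), 3 higher (1.17%) and 8 lower (3.11%), in 4 genes, beside 0.289% of all tested. Pdlim5 held 6 of them and Tpm1 3, and probe sets of 1 gene are not independent. This list and those below were chosen with earlier results of these data known. Their shares are therefore descriptions and no test of enrichment. The median difference of the list was 0.02, and that of all probe sets 0. Of the 11, 4 lay in genes whose median differed by 1 or more, where 19% of the list's probe sets were separated, and 7 in the other genes, at 2.97%. The same shares over all probe sets were 3.91% and 0.198%.

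**Figure D2:**
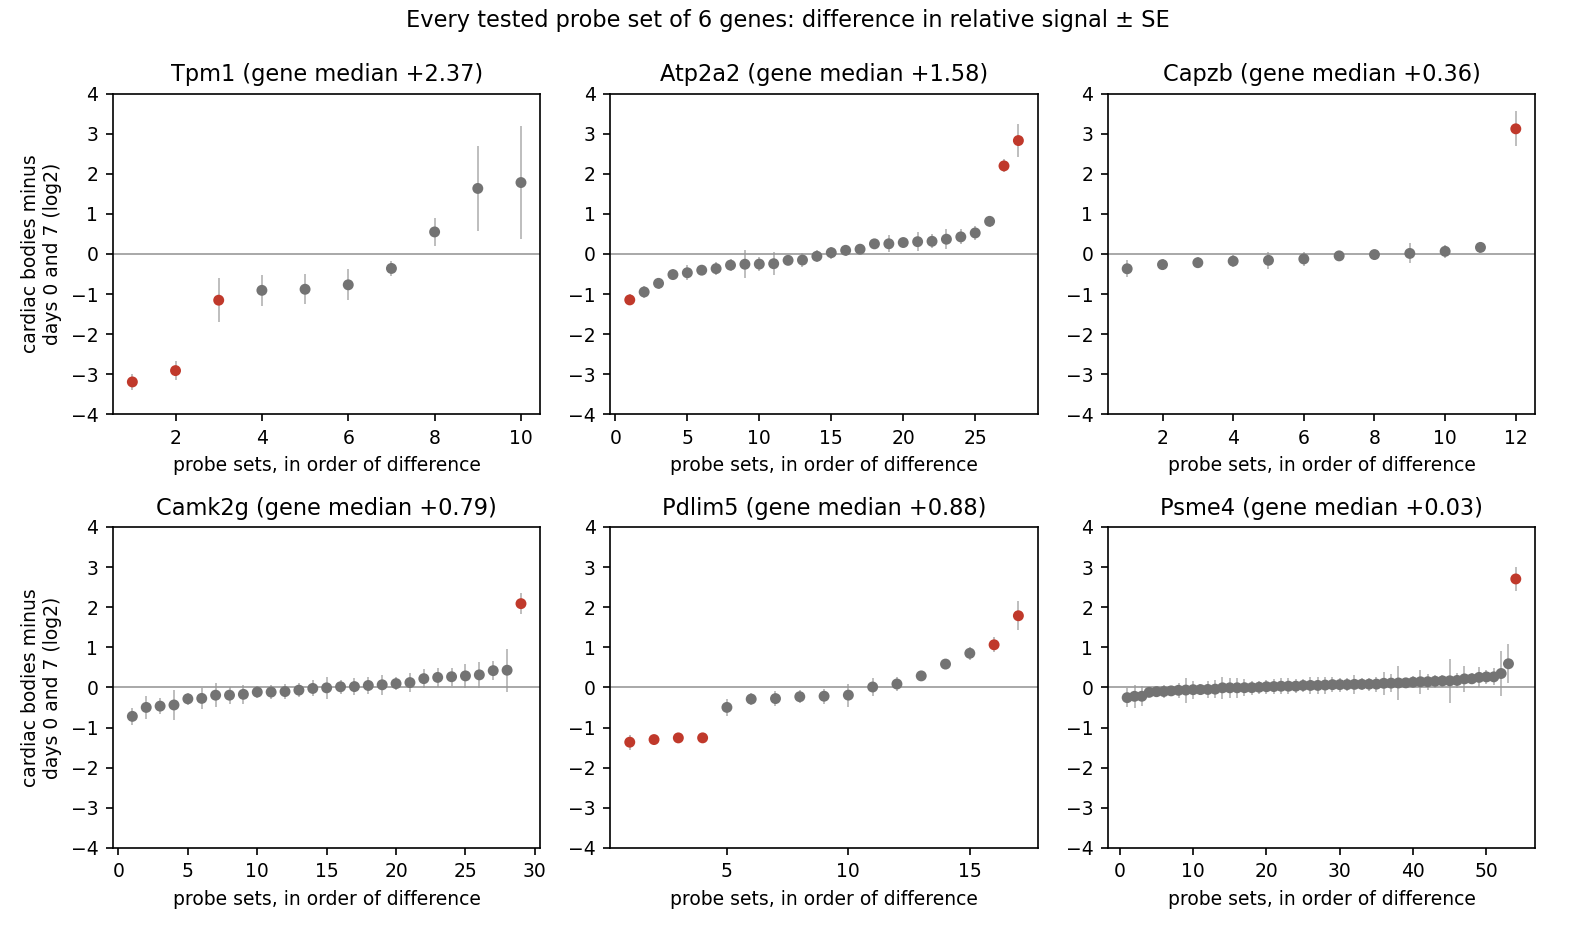
Difference in relative signal between cardiac bodies and days 0 and 7 pooled (log2, y axis, ± SE, 2 samples against 4) for every tested probe set of 6 genes, ordered by size along the x axis and not by position. Separated probe sets are red. In Capzb, Psme4 and Camk2g 1 probe set stands apart from the rest, at 3.12, 2.70 and 2.09, while Tpm1 and Pdlim5 are spread over many.

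Capzb, the beta subunit of the protein that caps the fast-growing end of actin filaments, held the largest positive difference of all tested probe sets. It is known for isoforms that differ at one end, one of them bound to the Z disc in muscle. Probe set 5295024 stood at -0.81 and -1.02 in cardiac bodies, against -5.09 and -3.73 in ES cells and -3.52 and -3.82 in embryonic bodies. The difference was 3.12 ± 0.44, and the nearest other sample was 2.50 away. Its own signal averaged 10.67 in cardiac bodies, against 7.19 in days 0 and 7. All 11 other probe sets of Capzb differed by less than 0.5, between -0.37 and 0.16, and the gene median by 0.36.

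Calcium handling gave the next group. Atp2a2 encodes the calcium pump of the sarcoplasmic reticulum, SERCA2, whose cardiac and ubiquitous forms are known to differ in their last exons. Probe set 4418573 had -1.70 and -2.16 in cardiac bodies, against -5.24 and -3.84 in ES cells and -5.18 and -4.77 in embryonic bodies (difference 2.83 ± 0.42). Probe set 4740804 had -0.27 and -0.69, against -2.69 and -2.81 in ES cells and -2.56 and -2.64 in embryonic bodies (2.19 ± 0.16, limma adjusted p = 0.306). Probe set 5071119 went the other way, with -0.71 and -0.45 in cardiac bodies, against 0.68 and 0.47 in ES cells and 0.51 and 0.62 in embryonic bodies (-1.15 ± 0.14). Days 0 and 7 were close to each other in all 3. The gene median was higher by 1.58, and the signal of 4740804 averaged 11.82 in cardiac bodies, against 8.05.

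The calmodulin-dependent kinases, which phosphorylate calcium channels and pumps, have variable linker regions in several subunits. In Camk2g, the gamma subunit, 5282948 stood at 0.15 and -0.78 in cardiac bodies, against -2.45 and -2.53 in ES cells and -2.22 and -2.41 in embryonic bodies (2.09 ± 0.26). Of its 28 other probe sets, 27 differed by less than 0.5. In Camk2b, the beta subunit, 5488682 had -1.58 and -1.10, against -4.46 and -4.18 in ES cells and -2.49 and -5.26 in embryonic bodies (2.76 ± 0.71). The 2 embryonic bodies lay far apart. The signal of this probe set was 7.96 and 7.94 in cardiac bodies, against 4.39 and 4.63 in ES cells and 4.55 and 2.23 in embryonic bodies, below the 25th percentile (5.37) in all 4, so the size of the difference is uncertain. Its probe set 5254897 was lower, with a difference of -1.23 ± 0.55, at -3.32 and -3.54 against -2.87 and -3.08 in ES cells and -1.31 and -1.53 in embryonic bodies. That is mainly a difference from day 7 (-2.01), since against day 0 it was -0.46.

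Itpr1, the IP3 receptor, had 1 separated probe set, 4707359, beside 63 others tested, at -3.38 and -1.92 in cardiac bodies, against -1.35 and -1.0 in ES cells and -1.40 and -0.74 in embryonic bodies (-1.53 ± 0.41). Its signal of 4.92 in cardiac bodies is below the 25th percentile. Over the ion channel and calcium list, with 7 of 26 genes kept, 8 of 224 probe sets were separated (3.57%), 4 in each direction, beside 0.139% higher and 0.151% lower over all. The median difference was 0.06. Of the 8, 6 lay in genes whose median differed by 1 or more (11.5% of such probe sets), and 2 in the other genes (1.16%).

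Adhesion and cytoskeletal adaptors gave 9 higher (0.865%) and 4 lower (0.384%) of 1041 probe sets, in 10 of 30 genes kept, beside 0.139% and 0.151% over all, with a median difference of -0.004. Of these, 4 lay in genes whose median differed by 1 or more (11.1% of such probe sets) and 9 in the other genes (0.896%). Ctnnd1, p120 catenin, which binds cadherins and has known alternative exons between epithelial and mesenchymal cells, had 5589147 at 0.83 and 0.57 in cardiac bodies, against -1.25 and -1.53 in ES cells and -0.93 and -0.18 in embryonic bodies (1.68 ± 0.37). All 24 other probe sets of Ctnnd1 differed by less than 0.5. The median of the epithelial markers was 7.75 and 7.61 in cardiac bodies, against 8.48 and 8.16 in ES cells and 10.37 and 10.14 in embryonic bodies. Probe set 5589147 differed by 2.09 from ES cells and by 1.26 from embryonic bodies. A link between this probe set and those markers was not tested. Lrrfip2, a signalling adaptor, had 5445719 at -1.16 and -2.12, against -3.99 and -3.65 in ES cells and -3.36 and -3.08 in embryonic bodies (1.88 ± 0.35). Both genes differed little in their medians, by -0.08 and 0.17.

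Ncam1, the neural cell adhesion molecule, is known for an extra muscle-specific segment. Its probe set 5176136 stood at 0.70 and 0.31 in cardiac bodies, against -0.69 and -0.67 in ES cells and -1.26 and -0.92 in embryonic bodies (1.39 ± 0.22), and 4553614 was higher by 1.18 ± 0.32. Probe set 4911955 was lower, with -4.29 and -2.93 against -1.40 and -1.36 in ES cells and -2.79 and -1.73 in embryonic bodies (-1.79 ± 0.53), and the gap to the nearest embryonic body was 0.14. The gene median was higher by 1.46. Magi1, a scaffold of cell junctions, had 5350619 at 0.82 and 0.57, against -2.40 and -0.91 in ES cells but 0.03 and 0.07 in embryonic bodies (1.5 ± 0.70). Against day 7 alone that is 0.65.

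The remaining separated members of this list were chosen after their values were seen. Itga6, an integrin subunit with 2 known cytoplasmic tails, had 5594042 at 0.03 and -0.51 in cardiac bodies, against -1.32 and -1.72 in ES cells and -1.94 and -1.31 in embryonic bodies (1.33 ± 0.25). Dst, which links intermediate filaments to junctions, had 4796204 higher by 1.32 ± 0.32, and Kif1b, a motor of vesicles and mitochondria, 4420256 by 1.15 ± 0.25, with 1 of its stages below the 25th percentile. Sptbn1, a spectrin, had 1 in each direction (1.19 ± 0.32 and -1.02 ± 0.20). Add3 and Enah, an adducin and an actin-elongating protein, had 1 each at -1.12 ± 0.16 and -1.08 ± 0.30.

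**Figure D3:**
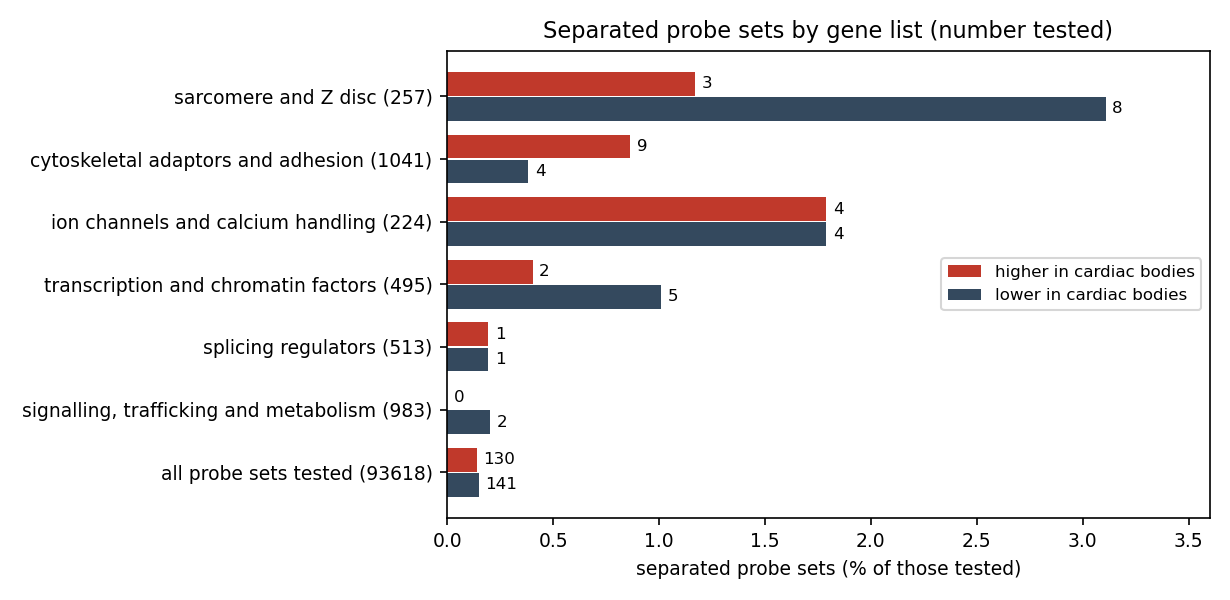
Share of tested probe sets that were separated upwards (red) or downwards (dark) in cardiac bodies (x axis, %), by gene list and over all probe sets tested, with the number separated beside each bar. The sarcomere and Z disc list has 3 and 8 of 257, and all probe sets 130 and 141 of 93618.

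In the list of transcription and chromatin factors 2 were higher and 5 lower of 495 (0.404% and 1.01%, beside 0.139% and 0.151% over all; median difference 0.02). Of the 7, 4 lay in genes whose median differed by 1 or more (12.5% of such probe sets) and 3 in the other genes (0.648%). Macroh2a1, a histone H2A variant with 2 known splice forms that differ in metabolite binding, had 4617759 at -1.67 and -2.51 in cardiac bodies, against -5.08 and -5.06 in ES cells and -4.08 and -4.41 in embryonic bodies (2.57 ± 0.37). The gene median differed by -0.75, while the signal of this probe set averaged 8.52, against 6.70. Of the 9 others, 8 differed by less than 0.5. Tcf3, a basic helix-loop-helix factor with alternative DNA-binding exons, had 5288859 at -0.34 and 0.42, against -2.17 and -0.52 in ES cells and -1.46 and -1.24 in embryonic bodies (1.39 ± 0.46). The cardiac bodies cleared one ES sample by 0.18.

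Nfib, a nuclear factor I protein, had 3 separated probe sets of 14, all lower, in a gene whose median was higher by 1.71. The largest, 4480567, had -2.29 and -1.86 in cardiac bodies, against -1.37 and -0.78 in ES cells and -0.61 and -0.10 in embryonic bodies (-1.36 ± 0.35). Nanog, a core pluripotency factor, had 4463588 at -7.98 and -6.97, against -6.41 and -6.83 in ES cells and -4.06 and -5.44 in embryonic bodies (-1.79 ± 0.78). Its signal of 4.43 in cardiac bodies and 5.42 in the others is under or near the 25th percentile of all values, and the difference from day 0 was -0.85. Mef2a, a MADS-box factor of muscle genes, held the remaining one, at -1.07.

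Splicing regulators themselves had 1 probe set in each direction of 513 (0.195% each, close to the 0.139% and 0.151% over all), both in Rbfox2, which is known to control muscle exons and to have alternative exons of its own. Probe set 5308371 stood at -1.58 and -0.89 in cardiac bodies, against -0.08 and 0.00 in ES cells and -0.02 and 0.06 in embryonic bodies (-1.22 ± 0.20). Probe set 4955677 had -0.84 and 0.00, against -3.24 and -1.01 in ES cells and -1.34 and -1.77 in embryonic bodies (1.42 ± 0.63). Qk, Mbnl1 and Hnrnpll, the next in size, differed by 0.95 ± 0.46, 0.89 ± 0.49 and -0.82 ± 0.71, and Hnrnpll overlapped between groups.

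At the gene level 1 of 44 clusters of the regulator list (41 genes measured) was called: Rbfox1, a splicing factor of neurons and muscle, was at 6.98 and 6.69 in cardiac bodies, against 5.11 and 4.90 in ES cells and 5.17 and 5.31 in embryonic bodies. The difference was 1.71 ± 0.20 (limma adjusted p = 0.021), beside 0.669% of all clusters called higher. That call was lost when any 1 of the 6 samples was left out and with the replicate number as a block. Celf2 had 8.03 and 7.86, against 5.62 and 5.77 in ES cells and 6.95 and 7.74 in embryonic bodies (1.42 ± 0.62, not called), so that it stood near one embryonic body. Rbpms2 (1.04 ± 0.47) and Srpk3, a muscle kinase of splicing factors (0.95 ± 0.18), lay above all other samples without passing. Ptbp3 (-0.78 ± 0.25) and the epithelial regulator Esrp2 (-0.61 ± 0.17) lay below them. In all, 7 of the 44 lay above all other samples and 4 below, beside 8.56% and 6.57% of all clusters. The median difference of the list was 0.006, against -0.01 over all clusters.

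**Figure D4:**
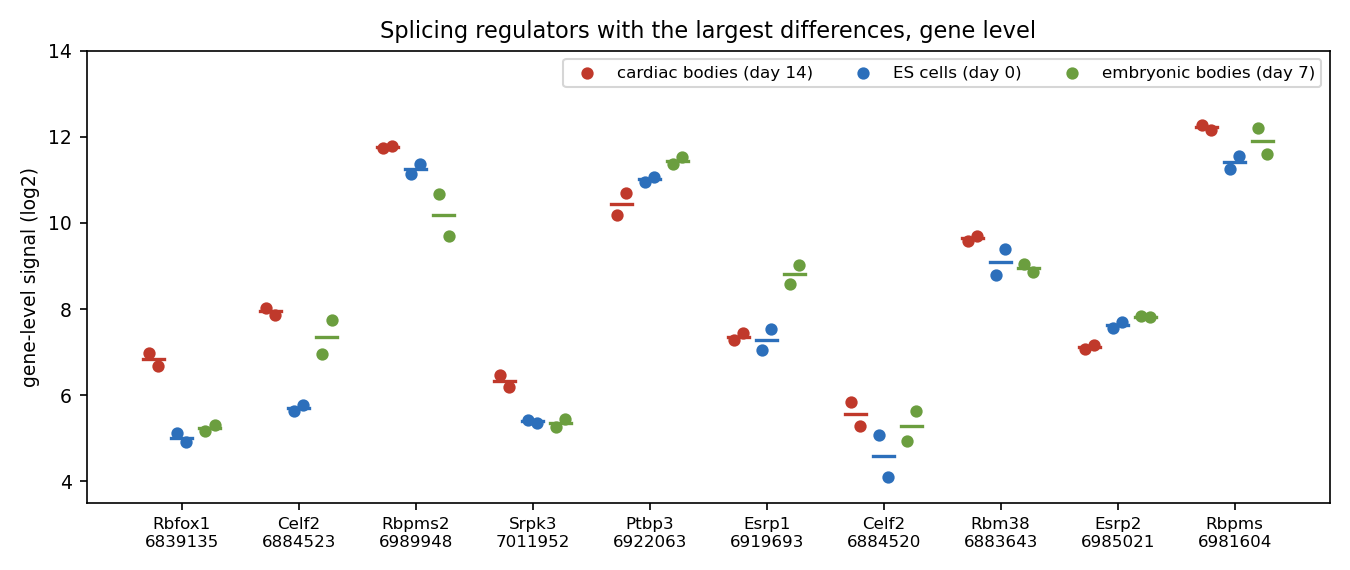
Gene-level signal (log2, y axis) of the 10 clusters of splicing regulators with the largest absolute differences between cardiac bodies and days 0 and 7 pooled, with gene and cluster number on the x axis. Points are samples and bars are stage means (n = 2). Rbfox1, with 6.98 and 6.69 in cardiac bodies, is the cluster that passed the test.

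Of the signalling, trafficking and metabolism list, 2 of 983 were separated, both lower (0.203%, beside 0.151% lower and 0.289% in either direction over all). Both lay in genes whose median differed by 1 or more, and none of the 950 probe sets in the other genes was separated. Prkag2, a regulatory subunit of the energy sensor AMPK, had 5072181 at 3.47 and 3.98 in cardiac bodies, against 4.96 and 4.78 in ES cells and 5.28 and 5.05 in embryonic bodies (-1.29 ± 0.21). Its own signal was nearly level, 12.27 against 12.41, while the gene median was higher by 1.16. Ndrg2 had 4573020 at -2.04 and -2.48, against -1.88 and -1.52 in ES cells and 0.06 and 0.01 in embryonic bodies, a difference of -1.43 ± 0.62 in which day 7 was the stage apart. Inpp5d, with the largest mean difference of this list (-2.86 ± 2.13), and Dlc1 (-1.38 ± 0.85) overlapped between the groups. In both genes embryonic bodies were the stage that stood high: Inpp5d had -5.28 and -6.68 in cardiac bodies, against -7.12 and -5.04 in ES cells and -0.26 and -0.07 in embryonic bodies.

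Outside the lists, Psme4, a proteasome activator, had 5059636 at -1.03 and -0.99 in cardiac bodies, against -4.18 and -3.15 in ES cells and -3.48 and -4.04 in embryonic bodies (2.70 ± 0.31). Its 53 other probe sets lay between -0.26 and 0.59, and the gene median differed by 0.03. Mrtfb, a coactivator of serum response factor, had 5558841 at -0.59 and -0.51, against -3.70 and -2.78 in ES cells and -2.25 and -2.79 in embryonic bodies (2.33 ± 0.37). Eif2b1, a subunit of a translation initiation factor, had 4986092 at -1.27 and -0.94, against -4.03 and -2.79 in ES cells and -3.51 and -3.53 in embryonic bodies (2.36 ± 0.33). Its signal averaged 7.09 in cardiac bodies, against 4.77 in days 0 and 7, which is below the 25th percentile, so the size of the difference is uncertain.

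Anapc15, of the anaphase-promoting complex, had 5505517 higher by 2.68 ± 0.57, and Babam2, of a deubiquitinating complex, 5468087 by 2.16 ± 0.44. In both the cardiac bodies cleared the other samples by over 1, with gaps of 1.21 and 1.15. Others among the 15 largest were less even. Zdhhc6 (2.69 ± 1.07), Cenpc1 (2.20 ± 0.79), Etfdh (2.03 ± 1.01) and Zbtb20 (2.35 ± 1.10) cleared the nearest sample by 0.12 to 0.39 and averaged signals of 3.6 to 4.85 in days 0 and 7, below the 25th percentile. In these genes the size of the difference is uncertain, and in Zdhhc6 one ES sample (-1.99) stood beside the cardiac bodies (-1.64 and -1.88) and the other at -6.04. Hcfc1r1 had 4380050 higher by 1.98 ± 0.74, with 1.15 as the difference from day 7. At day 0 its mean signal was below the 25th percentile.

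The largest negative differences were of another kind. Gyg, glycogenin, which primes glycogen synthesis, had 4787045 at -2.12 and -2.82 in cardiac bodies, against 1.97 and 1.16 in ES cells and -0.18 and -0.24 in embryonic bodies (-3.14 ± 0.67). Its signal was nearly level, 9.56 against 9.28, while the gene median was higher by 3.42. Pygb, a glycogen phosphorylase, had 5112297 at 0.47 and 0.39, against 3.55 and 3.07 in ES cells and 2.59 and 2.70 in embryonic bodies (-2.55 ± 0.28), with a signal of 11.26 against 11.48 and a gene median higher by 2.33. Cryab, a small heat shock protein of muscle (-2.70 ± 0.59, gene median 3.35), and Clu, clusterin (-2.22 ± 0.66, gene median 2.60), had the same form.

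Myl4, the atrial myosin light chain, was the extreme case. Its median was higher by 5.40, and 5 of its 9 probe sets were separated downwards and 1 upwards. In 5340432 the relative signal was -2.72 and -3.48 in cardiac bodies, against 0.00 in both ES samples and -0.91 and -1.22 in embryonic bodies (-2.57 ± 0.43). The signal of that probe set was itself higher in cardiac bodies, 10.24 against 7.40.

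Over all separated probe sets this pattern was one-sided. Of the 141 lower ones, 59 lay in genes whose median was higher by 1 or more in cardiac bodies and 2 in genes lower by as much. Of the 130 higher ones, 16 and 13 did. Among all 93618 probe sets these numbers were 1621 and 683, so that 2.46% lay in a gene that differed by 1 or more, against 43.3% of the lower and 22.3% of the higher ones. The part of the gene's own difference in these values was not tested. With genes that differed by 1 or more left out, 101 higher and 80 lower probe sets were separated. Low signal was also more frequent among them: 35.4% of the higher and 28.4% of the lower ones were below the 25th percentile in at least 1 stage, against 2.6% of all tested.

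**Figure D5:**
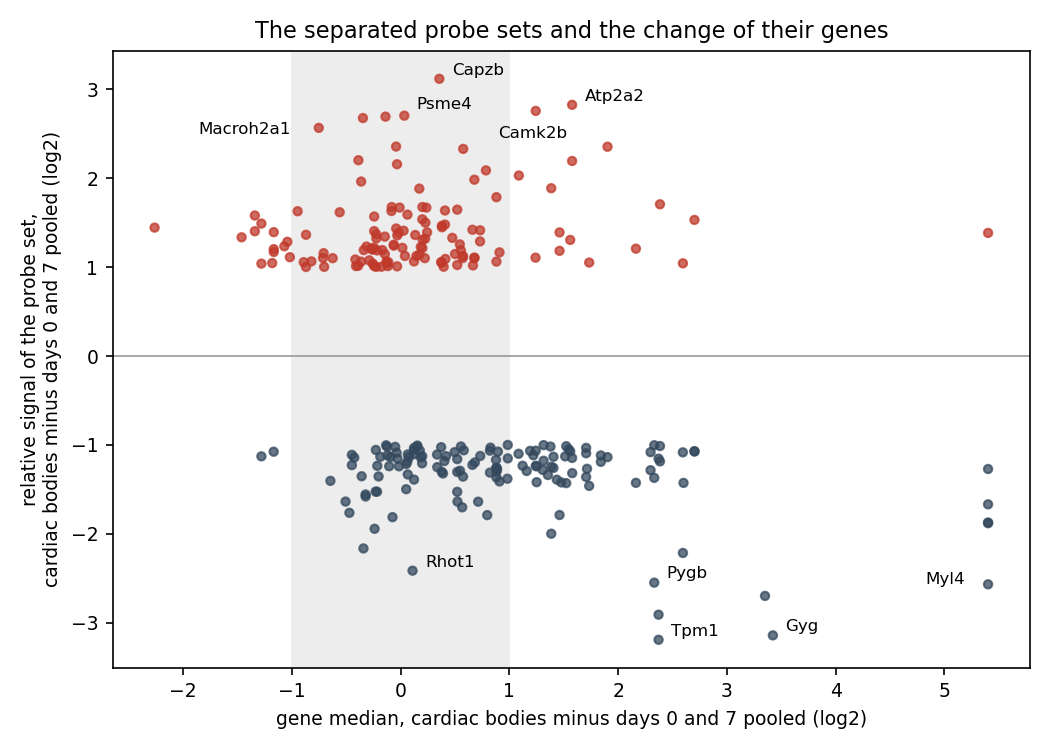
Each point is 1 of the 271 separated probe sets, with the difference of its gene median (x axis, log2) and of its relative signal (y axis, log2), both cardiac bodies minus days 0 and 7 pooled. The grey band marks genes that differed by less than 1. The lower points extend far to the right, to Myl4 at 5.40, while Capzb, Psme4 and Macroh2a1 lie in the band.

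Some of the negative differences lay in genes whose median differed by less than 1. Rhot1, a GTPase that carries mitochondria along microtubules, had 4636459 at -6.52 and -6.47 in cardiac bodies, against -4.45 and -4.74 in ES cells and -3.27 and -3.87 in embryonic bodies (-2.41 ± 0.40), with a gene median higher by 0.11. The signal of that probe set was 2.94 in cardiac bodies and 5.24 in the others, which is low on this array. Ccser2 (-1.70 ± 0.29), Taf9, of the general transcription factor TFIID (-1.81 ± 0.55), Polk, a DNA polymerase (-1.94 ± 0.70), Dennd6a (-2.16 ± 0.79) and Slx4ip (-1.76 ± 0.74) were likewise at average signals of 3.08 to 5.16 in cardiac bodies. In Slx4ip the cardiac bodies stood at -4.06 and -1.06, so that one sample made the difference. They were also far apart in Dennd6a (-6.90 and -4.06) and Polk (-4.76 and -2.45). There the gap to the nearest other sample was 0.06 and 0.03.

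In 20 genes probe sets were separated in both directions. Camk2b, Atp2a2, Myl4, Ak1, Zbtb20, Clu, Ncam1, Frmd4b, Pdlim5 and Nkx2-5 spanned the most, from 3.99 down to 2.89 between their highest and lowest. Of these, only Frmd4b and Pdlim5 had a gene median that differed by less than 1 from the pooled samples. Ak1, adenylate kinase, had a gene median higher by 1.39. Its probe set 4363602 was itself that median in both cardiac bodies, so its 2 values of 0.00 are equal by construction. The other samples stood at -1.26 and -1.19 in ES cells and -2.61 and -2.50 in embryonic bodies (1.89 ± 0.47). Probe set 4773016 had -4.58 and -2.40, against -1.51 and -1.58 in ES cells and -1.78 and -1.09 in embryonic bodies (-2.0 ± 0.57). Frmd4b had 2 higher and 3 lower, from 1.65 ± 0.84 to -1.53 ± 0.40, in a gene that differed by 0.52 from the pooled samples. Its gene median was 9.16 and 9.18 in cardiac bodies, against 7.27 and 7.85 in ES cells and 9.08 and 10.39 in embryonic bodies. In the probe set with the rise of 1.65 the ES samples lay far apart (-4.13 and -1.39). In Nkx2-5, a cardiac homeobox factor, 4623088 stood at 1.05 and 0.97, against -1.68 and -0.51 in ES cells and -0.36 and -0.26 in embryonic bodies (1.71 ± 0.41), in a gene higher by 2.39.

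A closer selection was made after the values were seen: a gap of 1 or more between the cardiac bodies and every other sample. It held 31 probe sets, 17 higher and 14 lower. Of these, 21 lay in genes that differed by less than 1, and 15 of the 21 had a mean above the 25th percentile at every stage. The 11 higher ones among the 15 were those of Capzb, Psme4, Anapc15, Macroh2a1, Mrtfb, Babam2 and Camk2g, 2 of Rexo1, and 1 each of C330007P06Rik and Ndufv3. The 4 lower ones were all in Pdlim5. Genes within 1 of the pooled samples can still differ more from day 0. The gene median of Mrtfb was 10.54 and 10.21 in cardiac bodies, against 9.13 and 9.28 in ES cells and 10.41 and 10.39 in embryonic bodies. That of Pdlim5 was 10.14 and 10.13, against 8.95 and 9.13 in ES cells and 9.11 and 9.82 in embryonic bodies. Rexo1 had 4997299 at 0.04 and 0.63 in cardiac bodies, against -0.98 and -1.25 in ES cells and -1.50 and -1.48 in embryonic bodies (1.64 ± 0.23), and 5085972 higher by 1.48 ± 0.19. Ndufv3, a subunit of respiratory complex I, had 4349505 higher by 1.34 ± 0.25, with an average signal of 10.75 in cardiac bodies, against 9.55.

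Whether a difference was particular to cardiac bodies depended on the stage it was set against. Of the 130 higher and 141 lower separated probe sets, 63 and 71 differed by 1 or more from day 0 and from day 7 taken singly, and in 55 and 80 the means of days 0 and 7 were within 0.5 of each other. Over all 93618 tested probe sets 223 differed by 1 or more from each stage. In 81689 of them the means of days 0 and 7 were within 0.5, a larger share than among the separated ones. The 2 comparisons share the cardiac body samples. For Capzb the differences were 3.49 from day 0 and 2.75 from day 7, for Tpm1 4866752 -3.41 and -2.98, for Psme4 2.65 and 2.76, and for Camk2g 2.18 and 2.00. For Gyg they were -4.03 and -2.26, and for Etfdh 2.80 and 1.27.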

How the data were processed

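The deposited log2 signals were made by the authors: the submitters' processing notes name RMA and Affymetrix Power Tools, without versions. Per the labels, the arrays were Mouse Exon 1.0 ST, summarised over core probe sets of mm9. Total RNA was taken with TRIzol and freed of ribosomal RNA, per the labels' protocols. No detection calls were used, and precision is limited by having 2 arrays a stage. Sample medians at the exon level lay between 7.11 and 7.42. The relative signal is not affected by a shift shared by all probe sets of a sample, but a shift that varies with signal can affect it. With quantile normalization 130 probe sets were separated upwards and 193 downwards, beside 130 and 141 without it.

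Symbols came from the platform annotation, updated through a RefSeq table of GRCm38.p6. At the exon level 209279 rows had 1 symbol, 4446 several and 15856 none, and 208810 matched the table. Rows without a single symbol could not be set against a gene and were left out. At the gene level these numbers were 15002, 1013 and 7317, and all rows were tested.

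Tests used R 4.3.3 with limma 3.58.1 (eBayes after lmFit; 2-sided; 2 samples against 4 pooled; Benjamini-Hochberg). In 303 probe sets the residual SD was under 0.001. Functions were tested on simulated data. Alternatives cover the baseline, the filters, the model, the stage compared, quantile normalization and each sample left out. Members and gene lists were chosen with earlier results of these data known. Named were the 15 largest separated probe sets in each direction (1 per gene), the 4 largest per list, genes separated in both directions and the largest differences among splicing regulators. Others are said to be chosen after their values were seen, or are counted among list members.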

Additional observations from a re-analysis of the deposited data

How the results depend on the processing

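The count of 0 called probe sets, in each direction, held under every alternative run with eBayes, the 6 that leave out a sample among them (0 to 0 in each direction), with 1028 to 6239 probe sets at an unadjusted p under 0.05. It held with the replicate block too (0 higher and 0 lower); the labels do not say what the replicate numbers share, and same-numbered samples deviated together in 1 of 3 pairs of stages (r = 0.57, -0.10 and -0.12). The lowest adjusted p over these alternatives was 0.052, for Tpm1 with the median of the other probe sets as baseline, and it was 0.079 with probe sets of no spread left out, an alternative added after the data were seen. limma's diffSplice, which takes the spread from all probe sets of a gene, called 19 higher and 11 lower, 28 of them separated, among them those of Capzb, Psme4, Camk2g, Macroh2a1, Rhot1 and 2 of Atp2a2. With the mean of a gene's probe sets as baseline 104 higher and 94 lower were separated, and 161 of the 271 were shared. Separated probe sets numbered 748 higher and 791 lower of 145967 tested with the gene filter at the 25th percentile. At the 75th they numbered 24 and 27 of 34826, beside 130 and 141 of 93618 in the main setting. The share separated was thus larger with the lower filter and smaller with the higher one. They numbered 84 higher with the probe set filter applied in every stage, 80 lower in genes that differed by less than 1, 494 and 404 against day 0 alone, and 446 and 397 against day 7 alone, where fewer samples have to be cleared. Leaving out each sample gave 159 to 1045 higher and 161 to 1206 lower; the highest counts were those with 1 cardiac body sample left, 1045 and 318 without replicate 1 and 507 and 1206 without replicate 2. Without replicate 2 of ES cells there were 257 higher, and without replicate 1 of embryonic bodies 217 lower. Most of the 59 named probe sets were chosen as separated. Their sign could not change when a sample was left out or 1 earlier stage was used, so the count of sign changes is no test of them. Of 1062 values of the 59 under alternatives, 2 changed sign, both in probe sets that were not separated. These were Inpp5d 5534932, 0.096 against day 0 alone, and Hnrnpll 5185888, 0.10 without replicate 1 of cardiac bodies (-1.75 without replicate 2). The cause was not tested. The call of Rbfox1 at the gene level, 1 cluster, was lost with the replicate block (0 clusters) and in each set of 5 samples (0 to 0 clusters).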
